A study of Homo sapiens with 4 samples.

Results

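The genes described here write, erase and read chemical marks on DNA and histones or move nucleosomes: 55 listed genes of DNA methylation, histone modification and chromatin remodelling. They were measured in 2 human cutaneous T cell lymphoma lines, MyLa, from mycosis fungoides, and HH. A probe set, a group of short oligonucleotides that read 1 transcript, was taken for a gene when the array annotation gave it that gene's symbol and no other. By this rule 54 of the 55 genes had 182 of the 54675 probe sets, and NCOR1 was not analysed here. All cells were held for 40 hours in 0.1% serum, either without further addition (control) or with IL-32γ, an isoform of the cytokine interleukin-32, at 5 ng/ml. Each of the 4 combinations of line and treatment was read on 1 array, and both lines stand for cutaneous T cell lymphoma through a single culture line each. Values are log2 expression, so that a difference of 1 is a 2-fold change, and a value under 5 was taken as not measured.

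DNA methyltransferases add methyl groups to CpG dinucleotides, and TET enzymes oxidise them. Histone acetyltransferases and deacetylases set the acetylation of histone tails, Polycomb repressive complex 2 and the KMT2 enzymes methylate histone H3 at sites of silent and of active genes, and SWI/SNF and CHD enzymes slide or evict nucleosomes with energy from ATP. Genes of these groups, among them DNMT3A, TET2, ARID1A and KMT2D, are recurrently altered in T cell lymphomas, and deacetylase inhibitors are used to treat cutaneous T cell lymphoma.

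On every array 42.9% to 43.3% of all probe sets were measured. Of 11 T cell marker genes with a probe set 8 were measured in at least 1 line, while CD7, CD28 and LCK were below 5 on all arrays, CD3E, CD4 and CD5 were measured in HH alone and CD8A in MyLa alone. Of markers of other cells, 0 of 4 of B cells, 1 of 4 of myeloid cells (ITGAM, in MyLa), 1 of 5 of fibroblasts (COL1A1, at 11.30 and 10.82 in MyLa, and in HH at 4.78 and 5.66) and 1 of 5 of keratinocytes (KRT10, all arrays) were measured. The control probe set near the 5′ end of ACTB was higher on the IL-32γ array of both lines, by 1.69 in MyLa and by 0.89 in HH, while the 3′ one differed by -0.08 and -0.03. The 5′ one was also lower in MyLa (10.12 and 11.81) than in HH (12.69 and 13.58). The 3′ one stood at 15.14 and 15.07 in MyLa and at 15.27 and 15.24 in HH. The part of this 5′ gap in the line differences given below was not tested.

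MyLa and HH differed in many of these genes. Of the 52 genes with a measured probe set, 7 were higher in MyLa and 11 were lower at an adjusted p under 0.05 and a 2-fold difference, and 34 did not pass. Without probe sets open to cross-hybridisation the split was 10 higher and 4 lower, among 36 genes left in the fit. The test was limma across all 11010 measured genes with Benjamini-Hochberg adjustment, in which the control and IL-32γ arrays of a line served as its 2 replicates. The labels do not make these separate cultures of 1 condition, so the p-values measure only the spread between these arrays, which holds the IL-32γ response. The same rule held for 37.2% of all genes tested, 19.7% higher in MyLa and 17.5% lower, against 34.6% of the chromatin genes. The share that differed was near that of genes at large. The chromatin genes were listed with earlier results of these data known, so nothing is read from their share. The median difference, MyLa minus HH, was -0.37 over the chromatin genes and 0.03 over all genes tested. The 2 genes with no measured probe set were DNMT3B, a de novo DNA methyltransferase, and TET1.

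**Figure D1:**
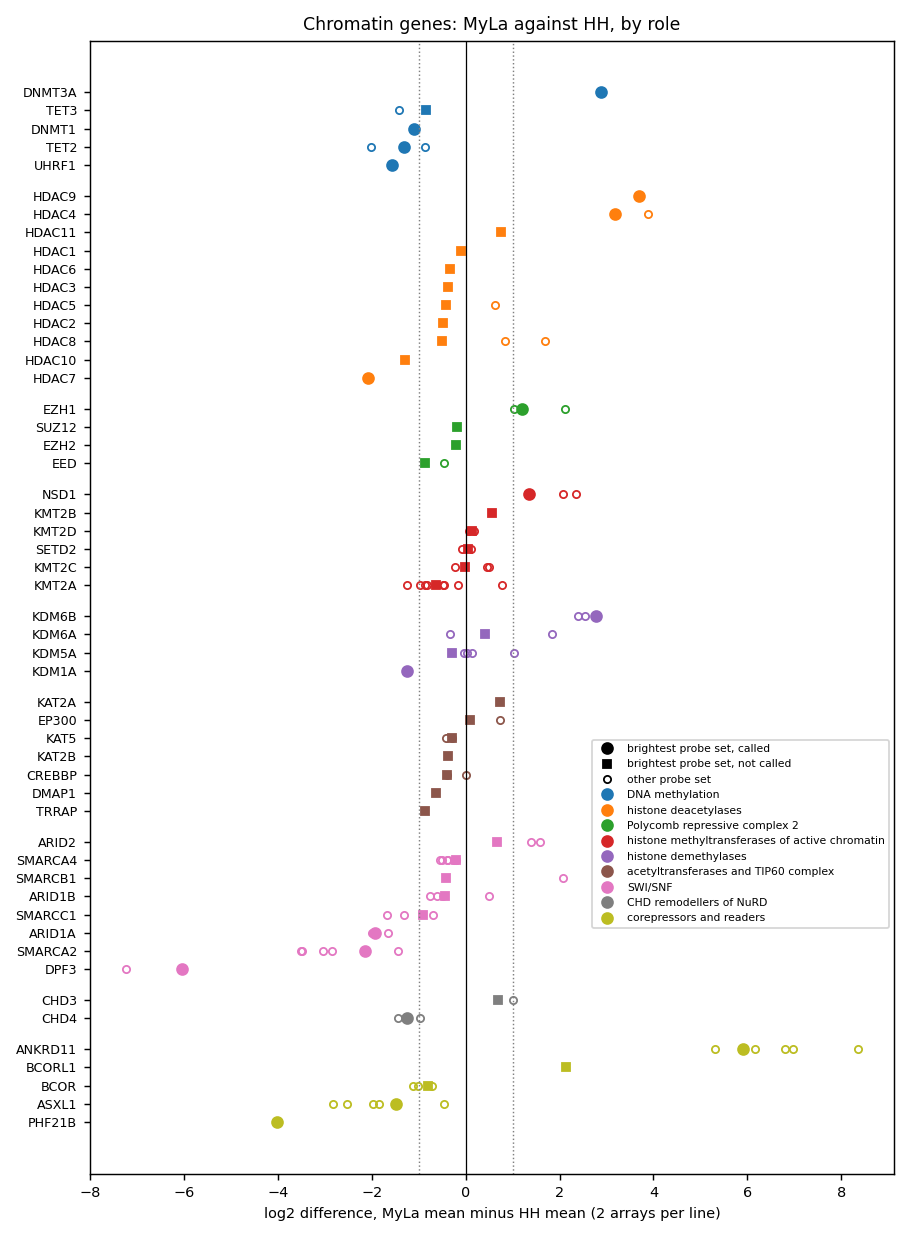
Log2 difference between the mean of the 2 MyLa arrays and the mean of the 2 HH arrays for 52 chromatin genes, grouped by role (colours). Filled circles are the brightest probe set of a gene that passed the test, filled squares one that did not, open circles its other probe sets in the fit, and dotted lines mark a 2-fold difference. By the brightest probe set, ANKRD11 lies farthest to the right (5.90) and DPF3 farthest to the left (-6.05).

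The DNA methylation genes split by enzyme. DNMT3A, which methylates new sites, was the 1 gene of this group higher in MyLa. It read 7.93 without and 7.89 with IL-32γ in MyLa, against 5.29 and 4.76 in HH, so that the last value lay below the floor (difference 2.89, SE 0.21, limma adjusted p = 0.00126; at least 6.82-fold with that value raised to 5). Its other 2 probe sets were below 5 on all arrays. DNMT1, which copies methylation after replication, went the other way, with 9.77 and 9.43 in MyLa and 10.88 and 10.53 in HH (difference -1.10, SE 0.20, adjusted p = 0.0148). Its partner UHRF1, which brings DNMT1 to newly copied DNA, read 10.30 and 10.88 in MyLa and 12.20 and 12.13 in HH (difference -1.58, SE 0.23, adjusted p = 0.00825). DNMT1 no longer passed without the MyLa IL-32γ array or without the HH control array, and UHRF1 without either HH array. TET2, which oxidises methylcytosine, was lower in MyLa, at 11.15 and 11.35 against 12.55 and 12.58 (difference -1.32, SE 0.12, adjusted p = 0.00244). Its other probe sets were lower too, by -0.88 and -2.02, but did not pass (limma adjusted p of 0.119 and 0.104). TET3 differed by -0.84 (SE 0.14, adjusted p = 0.011), short of 2-fold.

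Among 11 histone deacetylases, 3 passed the test. Class IIa enzymes, which bind MEF2 factors and carry deacetylase complexes to them, differed in both directions. HDAC4 read 11.62 and 11.28 in MyLa and 8.32 and 8.23 in HH, a 9.02-fold difference (log2 3.17, SE 0.16, adjusted p = 0.000462), and its other measured probe set differed by 3.88. HDAC9 was measured in MyLa alone, at 6.95 and 6.27, at least 3.05-fold above HH (adjusted p = 0.00324). That p uses HH values below the floor, and with values raised to 5 before the fit the difference was 1.61 (limma adjusted p = 0.0121). The other 4 probe sets of HDAC9 were below 5 on all arrays, and without either MyLa array it was not called. HDAC7, which is abundant in thymocytes, was lower in MyLa, at 8.88 and 8.07 against 10.85 and 10.26 (difference -2.08, SE 0.37, adjusted p = 0.0142), and lost the call without the HH control array. HDAC5, of the same class, did not pass (-0.42, adjusted p = 0.199). The class I enzymes that sit in corepressor complexes differed less, by -0.10 for HDAC1, -0.47 for HDAC2 and -0.37 for HDAC3 (adjusted p of 0.532, 0.112 and 0.321). For HDAC8 the probe sets contradict each other: the brightest differed by -0.50 without passing, and the other 2 by 1.69, which passed, and 0.84. HDAC6 (-0.33), HDAC10 (-1.30) and HDAC11 (0.76) did not pass.

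In Polycomb repressive complex 2, which methylates a lysine of histone H3, the alternative catalytic subunit EZH1 was higher in MyLa and the other subunits did not pass. EZH1 read 12.15 and 12.24 in MyLa and 11.22 and 10.79 in HH (difference 1.19, SE 0.19, adjusted p = 0.00969), and its other 2 probe sets in the fit passed as well, at 1.02 and 2.11. Without the HH IL-32γ array its difference was 0.98 and the call was lost. The main catalytic subunit EZH2 (13.98 and 13.69 against 14.10 and 14.01) and SUZ12 differed by -0.22 and -0.19 (adjusted p of 0.28 for both), and EED by -0.86 (adjusted p = 0.0167), short of 2-fold.

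Of the 6 histone methyltransferases of active chromatin, NSD1, which methylates a lysine of histone H3 in transcribed genes, was the 1 that passed. It read 10.71 and 11.43 in MyLa and 9.82 and 9.63 in HH (difference 1.34, SE 0.29, adjusted p = 0.0226). Its other 2 probe sets in the fit passed too, 1 at 2.34 and 1 that was below 5 in HH and differed by at least 1.55, but the brightest lost the call without any 1 of the MyLa IL-32γ, HH control or HH IL-32γ arrays. SETD2, which makes the trimethyl form of that mark, differed by 0.05 and all 3 of its probe sets lay between -0.08 and 0.11. The KMT2 enzymes, which methylate histone H3 at promoters and enhancers, also differed little in their brightest probe sets, by -0.64 (KMT2A), 0.56 (KMT2B), -0.02 (KMT2C) and 0.14 (KMT2D), with adjusted p-values of 0.186, 0.191, 0.879 and 0.346.

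Histone demethylases were higher and lower in MyLa. KDM6B, which removes the Polycomb mark and is induced in activated immune cells, read 11.67 and 12.50 in MyLa and 9.20 and 9.40 in HH, a 6.90-fold difference (log2 2.79, SE 0.33, adjusted p = 0.00445). Its other 2 measured probe sets also passed, at 2.53 and 2.39. KDM1A, which demethylates histone H3 within CoREST complexes, was lower, at 10.87 and 11.10 against 12.27 and 12.21 (difference -1.25, SE 0.13, adjusted p = 0.00329). KDM6A, an X-linked relative of KDM6B, and KDM5A did not pass by their brightest probe sets (0.40 and -0.28), while 1 of the other probe sets of each passed. That of KDM6A was below 5 in HH, so it entered the fit through MyLa alone, and it differed by at least 1.47. That of KDM5A differed by 1.03.

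None of the 7 acetyltransferase genes passed. The paralogues CREBBP and EP300, coactivators that acetylate histones at enhancers, both differed by less than 2-fold. EP300 was at 12.91 and 12.88 in MyLa and 12.78 and 12.82 in HH, and CREBBP differed by -0.41 (adjusted p = 0.0387, short of 2-fold). KAT2A and KAT2B, the acetyltransferases of the SAGA and PCAF complexes, differed by 0.74 and -0.37 (adjusted p of 0.0732 and 0.0809). KAT5 (TIP60) differed by -0.29, its scaffold TRRAP by -0.86 and DMAP1, a subunit shared with SRCAP, by -0.64. The DMAP1 values of the lines overlap.

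SWI/SNF, the ATP-dependent remodelling complex, held the gene lowest in MyLa relative to HH. DPF3, a PHD finger subunit known best from heart and muscle, read 6.48 and 5.32 in MyLa and 11.92 and 11.98 in HH, 66.4-fold lower in MyLa (log2 -6.05, SE 0.43, adjusted p = 0.00114). Its second probe set stood below 5 on both MyLa arrays and at 10.89 and 10.69 in HH, and a further dim one was measured on the HH control array alone (6.11). ARID1A, a subunit of the canonical BAF form of the complex, was lower in MyLa at 10.28 and 10.01 against 12.09 and 12.07 (3.83-fold, log2 -1.94, SE 0.14, limma adjusted p = 0.00119). The other 2 measured probe sets of ARID1A passed as well, at -2.00 and -1.64. SMARCA2, 1 of the alternative ATPases, read 11.73 and 11.62 in MyLa and 13.81 and 13.82 in HH (4.42-fold; log2 -2.14, SE 0.11, adjusted p = 0.000432). All 6 of its measured probe sets were lower in MyLa, from -3.50 to -1.44, and 5 passed. Without probe sets open to cross-hybridisation only the one at -1.44 was left, and it did not pass (adjusted p = 0.0522). The other ATPase, SMARCA4, read 11.74 and 12.01 against 12.14 and 12.03 (-0.21, adjusted p = 0.273), and its 8 measured probe sets lay between -0.54 and -0.20. No measured probe set of SMARCA4 reached a 2-fold difference. The core subunit SMARCC1 differed by -0.91, ARID1B by -0.44 and ARID2 by 0.67, all short of 2-fold, although 2 other probe sets of SMARCC1 and 2 of ARID2 passed. SMARCB1 has probe sets that contradict each other, -0.41 for the brightest and 2.07 for the other measured one, which passed.

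The ATPases of NuRD, a complex that couples remodelling with deacetylation, had opposite signs. CHD4 was lower in MyLa, at 8.55 and 9.16 against 10.02 and 10.22 (difference -1.26, SE 0.25, adjusted p = 0.0189), and CHD3 differed by 0.69 (adjusted p = 0.0207), short of 2-fold. The call of CHD4 was lost without any 1 of the MyLa control, HH control or HH IL-32γ arrays.

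ANKRD11, a chromatin regulator that binds nuclear receptor coactivators and HDAC3, stood farthest toward MyLa among the 52 genes. It read 12.21 and 12.01 in MyLa and 6.93 and 5.49 in HH, 59.7-fold higher in MyLa (log2 5.90, SE 0.53, adjusted p = 0.0022). All 6 of its probe sets passed. The other 5 read from 8.80 to 12.57 in MyLa, and in HH 1 of them stood at 5.52 and 5.23 and 4 stayed below 5 on both arrays. These 4 entered the fit through MyLa alone, and their p-values use HH values below the floor. With values below 5 raised to 5, the 6 probe sets differed by 4.22 to 6.97. ASXL1, a partner of the BAP1 deubiquitinase, was lower in MyLa, at 11.69 and 11.58 against 13.17 and 13.07 (difference -1.48, SE 0.11, adjusted p = 0.00139), and 5 of its 6 probe sets passed. BCOR, of a variant Polycomb complex, differed by -0.80 (adjusted p = 0.0106), and its X-linked relative BCORL1, measured in MyLa alone, did not pass (adjusted p = 0.115). PHF21B, a paralogue of a CoREST-bound reader, was measured in HH alone, at 6.99 and 5.31 (at least 2.22-fold lower in MyLa, adjusted p = 0.00913), and no longer passed with values raised to 5 before the fit (adjusted p = 0.19).

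**Figure D2:**
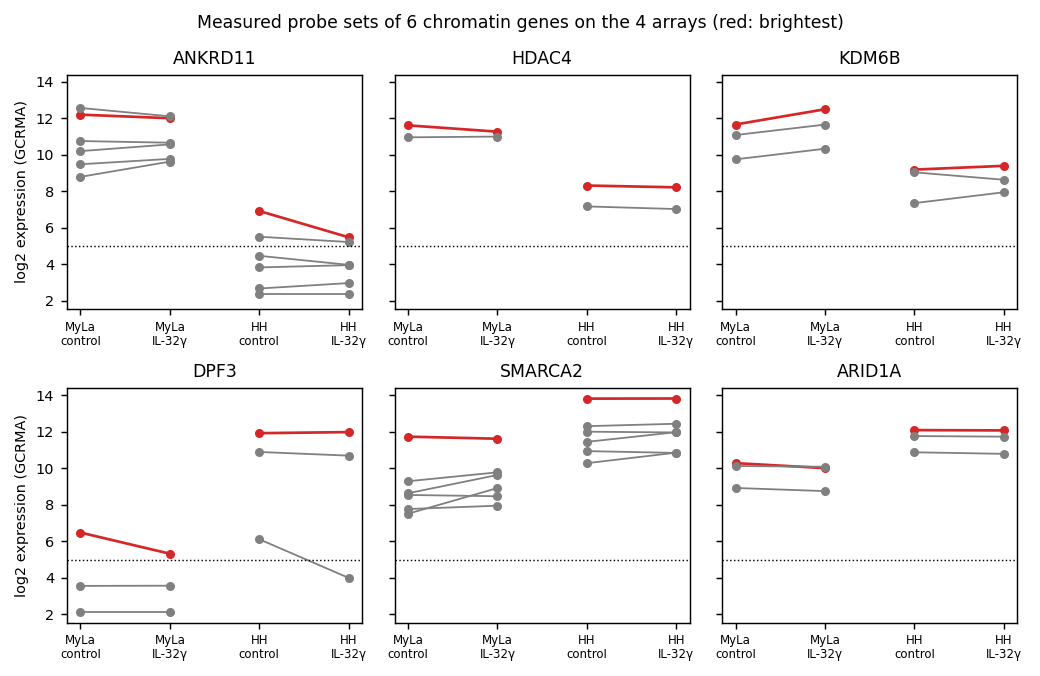
Log2 expression of every measured probe set of ANKRD11, HDAC4, KDM6B, DPF3, SMARCA2 and ARID1A on the 4 arrays, with the arrays of 1 line joined, the brightest probe set in red and the floor of 5 dotted. The brightest probe set of ANKRD11 stands at 12.21 and 12.01 in MyLa and at 6.93 and 5.49 in HH, and that of DPF3 at 6.48 and 5.32 in MyLa and at 11.92 and 11.98 in HH.

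The promoters of ANKRD11, DPF3 and ARID1A are shown because every fitted probe set of these genes passed with the same sign: ANKRD11 is the farthest of them toward MyLa, and DPF3 and ARID1A are those lower in MyLa. Some ANKRD11 and DPF3 probe sets entered the fit only through the line in which they were high. Each run is the 300 bases from 250 before to 50 after a RefSeq transcript start (GRCh38.p14), with CpG dinucleotides, the sites that the DNMT enzymes methylate, in capitals. DPF3 has 2 annotated starts.
ANKRD11, chr16:89490512-89490811, minus strand: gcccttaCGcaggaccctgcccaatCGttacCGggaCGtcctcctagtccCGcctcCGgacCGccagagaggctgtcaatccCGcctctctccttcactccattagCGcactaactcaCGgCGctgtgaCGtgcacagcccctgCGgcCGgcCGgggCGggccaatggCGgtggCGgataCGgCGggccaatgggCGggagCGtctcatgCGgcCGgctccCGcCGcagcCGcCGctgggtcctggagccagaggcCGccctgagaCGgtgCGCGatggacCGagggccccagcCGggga
DPF3, chr14:72894052-72894351, minus strand: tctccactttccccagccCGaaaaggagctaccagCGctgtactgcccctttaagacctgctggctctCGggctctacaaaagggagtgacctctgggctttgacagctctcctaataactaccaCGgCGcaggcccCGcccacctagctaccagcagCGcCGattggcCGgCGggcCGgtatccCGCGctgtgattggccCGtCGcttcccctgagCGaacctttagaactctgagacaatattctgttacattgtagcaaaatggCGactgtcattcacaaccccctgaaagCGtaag
DPF3, chr14:72892600-72892899, minus strand: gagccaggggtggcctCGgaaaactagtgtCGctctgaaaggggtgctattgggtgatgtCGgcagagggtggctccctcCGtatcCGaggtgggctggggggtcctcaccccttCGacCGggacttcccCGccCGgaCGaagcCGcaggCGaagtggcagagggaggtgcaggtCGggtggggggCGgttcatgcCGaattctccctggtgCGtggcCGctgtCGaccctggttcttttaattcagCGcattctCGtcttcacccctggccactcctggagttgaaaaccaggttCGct
ARID1A, chr1:26695765-26696064, plus strand: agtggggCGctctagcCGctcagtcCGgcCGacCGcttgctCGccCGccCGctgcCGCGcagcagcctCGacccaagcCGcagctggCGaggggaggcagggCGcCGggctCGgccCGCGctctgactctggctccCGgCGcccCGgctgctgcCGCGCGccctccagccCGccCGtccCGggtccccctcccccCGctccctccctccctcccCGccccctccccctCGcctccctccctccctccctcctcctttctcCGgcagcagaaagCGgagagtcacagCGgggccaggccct
The ANKRD11 window holds 34 CpG, that of ARID1A 33, and those of DPF3 18 and 21. HDAC4, also called by every fitted probe set, has 5 annotated starts, whose windows hold from 3 to 40 CpG. Of the chromatin genes, 50 matched the promoter table, with 89 windows and a median of 28 CpG, against a median of 14 over 35116 windows of all genes. At least 1 CpG (CG, which reads the same on both strands) was in 97.8% of the windows of these genes and in 96.0% of all windows. The GC box GGGCGG, which contains a CG, was found on either strand in 61.8% of the windows of these genes and 45.0% of all, and TATAAA in 3.37% and 11.5%. All 4 windows shown hold the GC box and none holds TATAAA. Methylation was not measured here, and these counts describe letters alone.

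Most genes had several probe sets, and these did not always give 1 answer. Taken singly, 37.3% of all 20731 probe sets in a fit of their own passed the line test. Of the 31 genes with 2 or more probe sets in the fit, 21 (67.7%) had line differences of 1 sign throughout, against 76.5% of all such genes. In 7 (22.6%, against 23.4%) every probe set passed the same way: ANKRD11, HDAC4, KDM6B, NSD1 and EZH1 higher in MyLa, and DPF3 and ARID1A lower. Some of the ANKRD11 and NSD1 probe sets were below 5 on both HH arrays, and a DPF3 one was on both MyLa arrays. Such probe sets entered the fit only through the line in which they were high. Their p-values use values below the floor, so they add no support. Another 8 genes did not pass by the brightest probe set but had another that did: HDAC8, KDM5A, KDM6A, ARID2, SMARCB1, SMARCC1, CHD3 and BCOR. That of KDM6A was below 5 on both HH arrays, so it too adds no support. The share of such genes among all genes was not counted, and nothing is read from the 8.

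A wider list of 171 other chromatin genes was read the same way. Of the 150 in the fit 31 passed (20.7%, against 37.2% of all genes), 16 higher in MyLa and 15 lower, with a median of -0.02. Higher in MyLa were KDM5B, a demethylase of active promoters (at 11.52 and 11.60, and below 5 in HH, at least 94.4-fold), BCL6, a repressor of germinal centre and follicular helper cells (at 13.50 and 13.22 against 5.22 and 4.72, at least 305-fold), KDM7A (4.56, SE 0.11) and SMARCD3, a SWI/SNF subunit below 5 in HH (at least 6.67-fold). PCGF2, a Polycomb ring finger protein (3.73, SE 0.17), the methyltransferase SMYD2 (2.06, SE 0.13), the corepressor SIN3B (1.91, SE 0.34) and the deacetylase SIRT1 (1.59, SE 0.10) completed the 8 largest. Lower in MyLa were SMYD3 (-2.82, SE 0.26), SUV39H2, which methylates histone H3 in heterochromatin (-1.97, SE 0.22), and the SWI/SNF subunits ACTL6A (-1.67, SE 0.12) and BRD7 (-1.49, SE 0.11). So were the coactivator NCOA1 (-1.56, SE 0.12), the histone methyltransferase EHMT2 (-1.45, SE 0.16) and HMG20B, of the CoREST complex (-1.34, SE 0.13). Adjusted p-values of these genes in limma lay between 2e-05 and 0.0138. Those of KDM5B and SMARCD3 use HH values below the floor, since these genes entered the fit through MyLa alone. For these genes the bounds given are the measure of the difference. BCL7A, a BAF subunit, also passed (limma adjusted p = 0.00364) and was taken among the 8 lower genes by its fitted difference, but it was below 5 in MyLa and its bound, at least 1.46-fold, is short of 2-fold. By list, against 19.7% of all genes higher and 17.5% lower, 4 of 21 further Polycomb genes, 3 of 17 demethylases and 2 of 7 sirtuins were higher and 0 lower. Of 24 further methyltransferases 2 were higher and 5 lower, of 17 SWI/SNF genes 1 and 3, of 23 acetyltransferase genes 1 and 2, and of 15 corepressors 3 and 1. Of 8 DNA methylation readers and partners and of 18 remodellers of other families, 0 were higher and 2 lower in each list.

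In MyLa, 4 of 11 deacetylase genes were lower by 1.5-fold or more with IL-32γ and 1, HDAC10, was higher. Upward past 1.5-fold were also 2 of 6 methyltransferase genes, 1 of 7 acetyltransferase genes, 1 of 4 demethylase genes, 1 of 2 CHD genes and 1 of 4 measured corepressors and readers. Each condition had 1 array, so these differences have no replicate check and no test. At 1.5-fold, 7 of 51 measured genes stood higher and 5 stood lower, together 23.5%, against 7.77% higher and 7.65% lower (15.4%) of all measured genes. BCORL1, 1 of the 7, was listed with its difference already known, so nothing is read from the share. As means of all probe sets of a gene, those below 5 on every array included, 1 was higher (DMAP1) and 1 lower (HDAC3). Such dim probe sets pull a mean toward 0, as for HDAC7, whose difference went from -0.81 to -0.40.

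DMAP1, the TIP60 subunit, read 6.27 without and 8.52 with IL-32γ (4.78-fold), against 8.18 and 7.88 in HH. The MyLa control value is the low one of the 4, and no second probe set reads this gene. BCORL1 stood at 5.10, near the floor, without and 7.50 with IL-32γ (5.28-fold), and its other 3 probe sets were below 5. HDAC10 was at 4.79 and 6.65, at least 3.14-fold higher because the control was below 5, and its second probe set was below 5 on all arrays. The remaining 4 rested on brighter values: KMT2A at 12.30 and 13.18 (1.84-fold), KDM6B at 11.67 and 12.50 (1.78-fold), NSD1 at 10.71 and 11.43 (1.66-fold) and CHD4 at 8.55 and 9.16 (1.53-fold). For KMT2A the next brightest probe set, at 12.85 and 12.93, differed by 0.08, another by -0.57, and the rest of those measured by 0.33 to 1.43. For KDM6B the other 2 measured probe sets were higher by 0.57 and 0.58, while for NSD1 they stood at -0.58 and -0.23, besides a dim one at 0.12, and for CHD4 at -0.11 and 0.42.

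Of the 5 that were lower, 4 encode deacetylases. HDAC7 read 8.88 without and 8.07 with IL-32γ (1.75-fold lower), HDAC8 8.69 and 7.92 (1.71-fold), HDAC9 6.95 and 6.27 (1.60-fold) and HDAC3 11.75 and 11.10 (1.57-fold). The other probe sets of HDAC8 differed less, by -0.23 and -0.14. DPF3, low in MyLa, went from 6.48 to 5.32 (2.23-fold lower), near the floor, and with a floor of 6 the difference was -0.48. DNA methylation genes stayed within 1.5-fold by their brightest probe sets, with UHRF1 highest at 0.58 and DNMT1 lowest at -0.33, as did all 4 genes of Polycomb repressive complex 2.

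In HH, 5 of 50 measured genes passed 1.5-fold, 1 higher and 4 lower (10%, against 5.61% of all genes: 1.14% higher and 4.46% lower). ANKRD11 and PHF21B, 2 of the 5, were listed with their differences already known, so nothing is read from this share. KDM6A was higher, at 8.46 without and 9.06 with IL-32γ (1.52-fold), while its second probe set differed by 0.16. ANKRD11, already low in HH, went from 6.93 to 5.49 (2.71-fold lower). Its other probe set above the floor differed by -0.29. PHF21B went from 6.99 to 5.31 (3.21-fold lower), and its other probe set was below 5. HDAC11, the class IV deacetylase, read 8.08 and 7.30 (1.72-fold lower) and HDAC7 10.85 and 10.26 (1.51-fold lower). All SWI/SNF, Polycomb repressive complex 2 and acetyltransferase genes listed stayed within 1.5-fold in HH by their brightest probe sets.

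**Figure D3:**
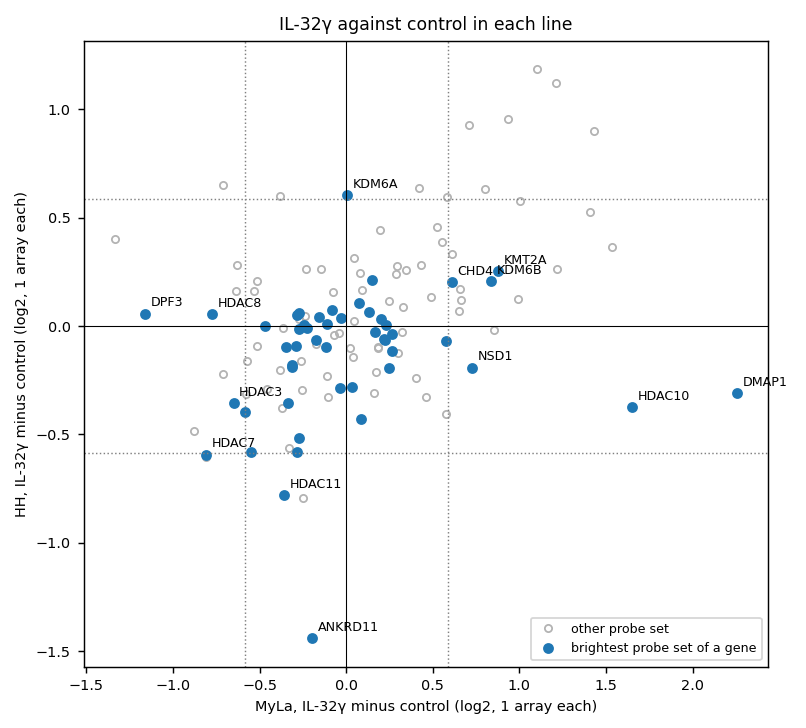
Log2 difference with IL-32γ in MyLa (x axis) and in HH (y axis), 1 array per condition, for genes and probe sets measured in both lines. Blue points are the brightest probe set of a gene, named when past 1.5-fold (dotted lines) in a line, and grey circles are other probe sets. HDAC7 lies beyond 1.5-fold on the low side in both lines (-0.81 and -0.59), and DMAP1 lies farthest right (2.26).

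Most deacetylases had lower values with IL-32γ in both lines. Of 10 measured in both lines, 9 were lower with IL-32γ in MyLa, 8 in HH and 7 in both. Of all 9545 genes measured in both lines, 5582 were lower in MyLa, 6271 in HH and 44.1% in both. Of the 49 chromatin genes, 28 were lower in MyLa, 30 in HH and 36.7% in both. The deacetylases lower in both were HDAC1, HDAC3, HDAC4, HDAC5, HDAC6, HDAC7 and HDAC11. Any negative difference was counted, among them HDAC1 at -0.06 and HDAC4 at -0.10 in HH. The deacetylase count in both was 8 of 10 after quantile normalisation and 7 of 10 with arrays centred on their medians. HDAC7 was the 1 gene of 49 past 1.5-fold downward in both lines (0.911% of all genes), though after quantile normalisation its HH difference was -0.56 and with centred arrays -0.57, both short of it, and 0 were higher in both (0.356%). With the lines as replicates and the line as a block, none of the 52 genes passed an adjusted p of 0.05 in limma, and none of 11010 genes did. At an unadjusted p under 0.05, 7 of 52 were lower (13.5%, against 7.87% of all genes) and 0 higher (against 1.62%). These 7 were HDAC7 (-0.70), HDAC3 (-0.50), HDAC6 (-0.49), HDAC11 (-0.57), KMT2B (-0.56), KAT2A (-0.43) and DNMT1 (-0.35), with limma adjusted p-values of 0.522 to 0.523. The fit has 1 residual degree of freedom, and the shared median of all genes, -0.07 in both lines, was not removed. The chromatin genes were listed with earlier results of these data known, so nothing is read from the 13.5%.

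Probe sets of 1 gene differed in their response to IL-32γ. Among 123 probe sets of these genes measured in both lines, 6 (4.88%) exceeded 1.5-fold upward in both and 2 (1.63%) downward, against 1.97% and 0.946% of all probe sets with 1 symbol. None of the 6 was the brightest of its gene: 3 belong to KMT2A, 1 to TET2, 1 to TET3 and 1 to SETD2. The KMT2A ones read 6.96 and 8.06, 6.18 and 7.61, and 6.22 and 6.93 in MyLa without and with IL-32γ, and in HH 7.89 and 9.07, 7.70 and 8.60, and 6.60 and 7.53. The other 6 measured probe sets of KMT2A lay between -0.57 and 0.88 in MyLa and between -0.33 and 0.28 in HH. For TET2 the dim probe set read 4.35 and 6.21 in MyLa and 6.74 and 7.86 in HH, while the brightest differed by 0.20 and 0.03 and another by -0.71 and 0.65, with opposite signs in the lines. The TET3 one was higher by 0.94 and 0.96, where the brightest differed by 0.15 and 0.21. SETD2 had 1 probe set higher by 0.80 and 0.63 and another 2 with negative differences, the brightest at -0.32 and -0.18. On these arrays the 5′ control probe set of ACTB was higher in both lines as well, by 1.69 and 0.89, and that of GAPDH by 0.68 and 0.15, and their part in these differences was not tested. The 2 lower in both were the single measured probe set of HDAC7 and 1 of 6 of ASXL1 (-0.81 and -0.60).

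**Figure D4:**
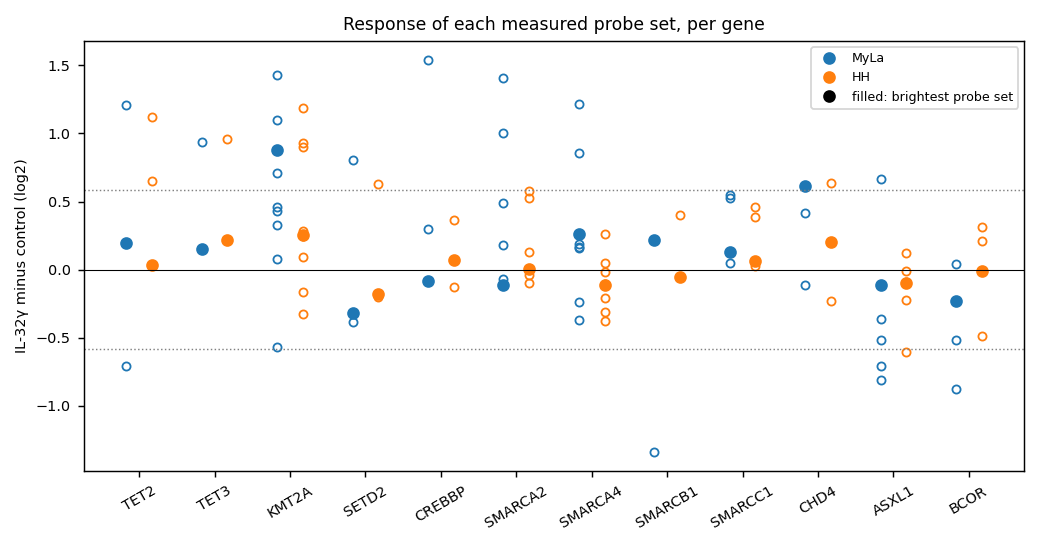
Log2 difference with IL-32γ of each measured probe set of 12 chromatin genes, in MyLa (blue) and HH (orange), with the brightest probe set filled and 1.5-fold dotted. Probe sets of KMT2A range from -0.57 to 1.43 in MyLa, and those of SMARCA2 from -0.11 to 1.41.

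Over all their measured probe sets, 24 of 134 exceeded 1.5-fold upward in MyLa and 12 downward, and in HH 11 of 126 were higher and 7 lower. Of all probe sets, 11.2% and 8.42% did so in MyLa and 4.68% and 3.97% in HH. Of 30 genes that at least 2 measured probe sets read in MyLa, 19 had both signs among them, and in 0 did every probe set pass 1.5-fold the same way. The same held for 16 and 0 of 31 genes in HH. These counts were not made over all genes, so nothing particular to the chromatin genes is read from them. Of the wider list, RBBP5, a core subunit of the KMT2 complexes, was higher in both lines (0.71 and 0.60), and CBX2, a reader of the Polycomb mark, lower in both (-0.62 and -0.71).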

How the data were processed

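The RNA of 4 cultures was hybridised after 1 round of amplification with biotin, per the labels. The deposited values are log2 expression per probe set after GCRMA, per the submitters' processing notes. Its version was not given in the sources used here, nor was joint or separate normalisation of the arrays. GCRMA corrects background by probe sequence, so dim probe sets sit near a common low value. The log2 scale of the deposited table follows from those notes and its range, 2.13 to 16.0.

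Probe sets with 1 symbol (41097) were named through the annotation table and a RefSeq table (GRCh38.p14, 41043 matched). They covered 19775 genes, each represented by its brightest probe set (highest mean of the 4 arrays). Differences within a line were taken after raising values below 5 to 5, with no test, and 1.5-fold was counted. A fold marked "at least" uses raised values. Line differences were tested in limma 3.58.1 (R 4.3.3) on log2 values, for genes that reached 5 on 2 arrays or more (2 residual degrees of freedom), and IL-32γ across lines with the line as a block. Both fits were run on simulated data with independent noise and few changed genes. That checks the code and not the calls made here. Alternatives were floors of 4 and 6, quantile and median scaling, probe set means, every probe set, no _s_at or _x_at probe sets, other fold thresholds, a treatment block, an intensity trend and leaving out each array. Raising values before the line fit was chosen after seeing the data.

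Genes given with values were those passing a test or 1.5-fold, at least 1 per role, and, of the wider list, the 8 largest line differences per direction and those past 1.5-fold the same way in both lines. The genes and lists were chosen with earlier results of these data known, among them the IL-32γ differences of BCORL1, ANKRD11 and PHF21B. A Y-linked gene was left out of the wider list. Python 3.11.15 with pandas 2.3.3 and numpy 2.4.6 prepared the tables, and matplotlib 3.10.9 the plots.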

Additional observations from a re-analysis of the deposited data

Results flagged for a closer look

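In 5 genes a difference of 1.5-fold or more with IL-32γ in 1 line came with the opposite sign in the other, each from 1 array per condition, and the difference between the lines was not tested. DMAP1 stood at 2.26 in MyLa and -0.31 in HH, and HDAC10 at 1.65 and -0.37. NSD1 stood at 0.73 and -0.19 by its brightest probe set. Its only other probe set measured in both lines was lower in both, by -0.58 in MyLa and -0.315 in HH. HDAC8 stood at -0.77 in MyLa and 0.05 in HH, and DPF3 at -1.16 and 0.06. To 3 digits the HH values were 0.0536 for HDAC8 and 0.0571 for DPF3. The HH differences of HDAC8 and DPF3 are close to 0, and the MyLa values of HDAC10 and DPF3 lie near the floor of 5.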

How the results depend on the processing

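Where a gene called between lines stayed in the fit under an alternative, it kept direction and call 206 times, lost the call 14 times and reversed 0 times. These counts leave out settings in which a called gene dropped below the filter and so lost its call: HDAC9 without either MyLa array, PHF21B without either HH array and at a floor of 6, and DNMT3A, HDAC9 and PHF21B as means of probe sets. Other floors, the treatment block and the intensity trend leave the difference of a fitted gene unchanged. Those settings could alter only its p-value, so they are weak checks and could not reverse a direction. Leaving out each array in turn gave 5 to 6 genes higher in MyLa (7 with all arrays) and 6 to 13 lower (11), with the lone array assumed to vary like the others. The count of 6 came without the HH control array, which lost CHD4, DNMT1, HDAC7, PHF21B and UHRF1 on that side. With no minimum fold 9 were higher and 17 lower. Without probe sets open to cross-hybridisation 10 were higher, ARID2, CHD3 and SMARCB1 being added, and 4 were lower: DNMT1, HDAC7, KDM1A, ARID1A, CHD4 and PHF21B had no probe set left in the fit, and SMARCA2 no longer passed. Counting genes with any called probe set gave 13 higher. With the treatment as a block all 18 were called and BCORL1 was added.

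The 1.5-fold counts changed with how probe sets were combined. In MyLa, 7 higher and 5 lower became 1 and 1 as means of probe sets, and 19 and 11 when any probe set counted; in HH, 1 and 4 became 2 and 0, and 8 and 7. Without probe sets open to cross-hybridisation HH gave 0 and 2. At 2-fold the counts were 3 and 1 in MyLa and 0 and 2 in HH, and at 1.3-fold 8 were lower in MyLa and 9 in HH. Across lines, IL-32γ gave 0 calls under every alternative run, among them no replicate block, in which the line was left out. Leaving out an array leaves that fit no residual degrees of freedom, and each line alone is the difference within it. Values near 5 have no order, and 4 arrays limit all precision.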

Other observations

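The genes next to the chromatin genes with the largest line differences gave the following values, taking gene order from RefSeq (GRCh38.p14) and the 5 nearest measured protein-coding genes on each side. Around ANKRD11 on chromosome 16, 3 of 10 passed the line test (37.2% of all genes did), all lower in MyLa, opposite to ANKRD11. CBFA2T3, a corepressor of the ETO family, stood at 2.60 and 2.57 in MyLa and 11.43 and 11.15 in HH. It entered the fit through HH alone, and its call uses MyLa values below the floor. ACSF3, a mitochondrial acyl-CoA synthetase, stood at 5.30 and 5.19 against 8.14 and 8.39 (difference -3.02, limma adjusted p = 0.000347). SPATA33 differed by -1.15 (limma adjusted p = 0.00944). The nearest measured genes on either side, ZNF778 and CPNE7, differed by 1.38 and -0.51 and did not pass. Around DPF3 on chromosome 14, 3 of 10 passed, MAP3K9 (-2.20) and COX16 (-2.12) lower in MyLa and ZFYVE1 (1.01) higher.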
